A study of Mus musculus with 2 samples.

Results

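The citrate cycle and the respiratory chain of mitochondria were followed through 47 nuclear genes. They were listed by name, with earlier results of these data known. Of these, 22 encode citrate cycle enzymes or pyruvate dehydrogenase subunits and 25 encode subunits of complexes I, III and IV or of ATP synthase. All 47 symbols were found once each among the 27998 genes of the deposited matrices. The data are droplet-based 3' RNA counts of cells from parietal bone defects of 2 mm in wild-type C57BL/6 mice. The labels name more than 1 version of the 3' kit without saying which library used which. Defects were filled with either of 2 hydrogels, labelled CGG and CGG-Cit, and were taken at 2 weeks (day 14 after surgery). Trimmed tissue was digested with 0.3% collagenase and strained at 70 µm. Both groups were operated and carried a gel, so no unoperated or empty defect was compared. Each gel is represented by 1 library. The labels do not give the animals' age, how many animals a library holds, or what CGG stands for. Values were therefore compared without a test. Each interval is an exact 95% interval that covers counting error only, and no difference below has a replicate check.

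The citrate cycle oxidises acetyl groups, which pyruvate dehydrogenase supplies from glycolysis, and passes the electrons to NADH and, through succinate dehydrogenase, to ubiquinone. Complexes I, III and IV carry these electrons to oxygen and build the proton gradient that ATP synthase uses. Most subunits are encoded in the nucleus and a few core subunits by the mitochondrial genome. Maturing neutrophils are known to rely largely on glycolysis and to hold few mitochondria, whereas red cells lose their mitochondria at the end of maturation. The cycle genes Aco1, Idh1 and Mdh1 encode the cytosolic forms of their enzymes.

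Genes of both pathways are known targets of the factors NRF1 and the ETS protein GABP. The starts of Sdhb and Atp5h are shown as an example of each motif, in a cycle and a chain gene that stood higher with the CGG-Cit gel in every cell type measured (values below). RefSeq promoter windows (GRCm38.p6, 250 bases before to 50 after a start) matched 39 of the 47 members, with 46 windows. The 8-base core of the NRF1 motif (GCGCATGC, or GCATGCGC on the other strand) was in 5 of these (10.9%) and in 2.71% of all 32851 windows. The 5 windows belong to 4 genes, Sdhb, Atp5l, Cox6a1 and Ogdh, the last with 2 overlapping windows. An ETS core (CCGGAAGT, or ACTTCCGG on the other strand) was in 4 (8.70%), those of Atp5h, Cox8a, Dlst and Uqcrh, and in 3.89% of all windows. The cores were not limited to members that stood higher with CGG-Cit, since Ogdh and Atp5l were higher in only 6 of 21 types and Dlst in 5 of 20. The Sdhb window lies at chr4:140961021-140961320 on the plus strand and holds the NRF1 core, and the Atp5h window at chr11:115419870-115420169 on the minus strand holds the ETS core, both in capitals. A match of these letters is a description and not a binding site.
Sdhb: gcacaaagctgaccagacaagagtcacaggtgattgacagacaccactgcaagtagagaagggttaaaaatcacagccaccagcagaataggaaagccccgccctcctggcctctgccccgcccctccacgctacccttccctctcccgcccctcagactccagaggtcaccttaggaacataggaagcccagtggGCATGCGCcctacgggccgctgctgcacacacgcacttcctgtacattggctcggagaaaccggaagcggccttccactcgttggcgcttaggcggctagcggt
Atp5h: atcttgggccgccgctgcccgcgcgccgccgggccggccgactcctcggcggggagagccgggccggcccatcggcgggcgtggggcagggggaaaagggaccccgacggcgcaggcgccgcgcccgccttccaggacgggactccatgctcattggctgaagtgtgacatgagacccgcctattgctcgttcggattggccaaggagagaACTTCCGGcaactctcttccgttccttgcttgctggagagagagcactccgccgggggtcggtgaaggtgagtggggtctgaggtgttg

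The CGG library held 12527 barcodes and the CGG-Cit library 10806, with 92517884 and 106173570 unique molecular identifiers (UMIs, counted RNA molecules). After filters and doublet removal 11048 and 9994 cells remained, and 26 barcode sequences occurred in both. Clusters were named from marker genes, and each name below stands for cells resembling that type. In the CGG library 3983 cells (36.1% of those kept) fell in 9 clusters with a median haemoglobin share of 2.01% to 5.45%. No other cluster outside the erythroid series exceeded 0.626%. These clusters, which held 23 CGG-Cit cells, were set aside. So was a cluster of 18 CGG cells resembling the osteoblast lineage, too small for a type, and the remaining 7047 and 9971 cells in 29 types were used. Levels are the UMIs of a gene or list of a type in a library, scaled to a common total (CPM, counts per 1e6 UMIs). A type needed 50 cells, which 21 types reached in both libraries.

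Across the types the sums of both lists were highest in dividing or immature blood cells and lowest in neutrophils and, per total UMI, in haemoglobin-filled erythroid cells, in either library. In myeloid progenitors the citrate cycle genes summed to 2075 (CGG) and 2058 CPM (CGG-Cit), and the respiratory chain genes to 15478 and 14588 CPM. The cluster led by Meis1, a progenitor transcription factor, reached 2101 and 1934 CPM for the citrate cycle. Pro-B cells had 1792 and 2051 CPM for the citrate cycle and 15582 and 15718 CPM for the respiratory chain. At the other end, inflammatory neutrophils had citrate cycle sums of 532 and 547 CPM and mature neutrophils 528 and 558 CPM. The intervals of these 2 neutrophil types overlapped in each library, from 491 to 576 CPM against 502 to 554 CPM with CGG. Late erythroid cells were lowest, with 94.8 and 84.1 CPM for the citrate cycle and 1325 and 1184 CPM for the respiratory chain, in cells whose UMIs were 87.5% and 87.6% haemoglobin. Without haemoglobin in the total their respiratory chain sum was 10599 and 9509 CPM, above every neutrophil type, and their citrate cycle sum 758 and 676 CPM. Highest and lowest types thus differed 22.2-fold (CGG) and 24.5-fold (CGG-Cit) for the citrate cycle and 11.8-fold and 13.3-fold for the respiratory chain. Without the erythroid types these folds were 3.98 and 3.76 for the citrate cycle and 2.98 and 3.36 for the respiratory chain.

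Most other types lay close together in between. T, NK and endothelial cells held citrate cycle sums of 1019 CPM (gamma delta T cells) to 1229 CPM (NK cells) with CGG. With CGG-Cit the same types spanned 1036 CPM (endothelial cells) to 1239 CPM (NK cells). Monocytes reached 1463 and 1588 CPM, conventional dendritic cells 1252 and 1133 CPM, and plasmacytoid dendritic cells 1396 and 1656 CPM. Macrophages and stromal cells passed 50 cells in the CGG library only. There, macrophages led by C1qa, Apoe and Folr2 had 1203 CPM, Gpnmb macrophages 1267 CPM, fibroblasts 1082 CPM and mural cells of small vessels 1436 CPM. Migratory dendritic cells, which also passed 50 cells with CGG only, had 862 CPM for the citrate cycle. Mast cells and basophils, which passed 50 cells with CGG-Cit only, had 1405 CPM there. The stromal cluster led by Mmp13 and Chad had 1152 CPM. Dura-like stroma, marked by genes such as Ptgds and Crabp2, stood above the other stromal types with 1693 CPM for the citrate cycle and 14400 CPM for the respiratory chain. Its interval for the citrate cycle, 1628 to 1759 CPM, did not meet that of mural cells, 1346 to 1530 CPM. Fibroblasts had the lowest respiratory chain sum outside neutrophils and late erythroid cells in the CGG library, at 7933 CPM.

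The order of the types was alike for both lists. Over the 26 types of the CGG library and the 20 types of the CGG-Cit library outside the erythroid series, Spearman's rank correlation between the 2 sums was 0.89 and 0.95. These are descriptions over types that share a library and a fixed total of UMIs, so a list can also be low where other genes take up the total.

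**Figure D1:**
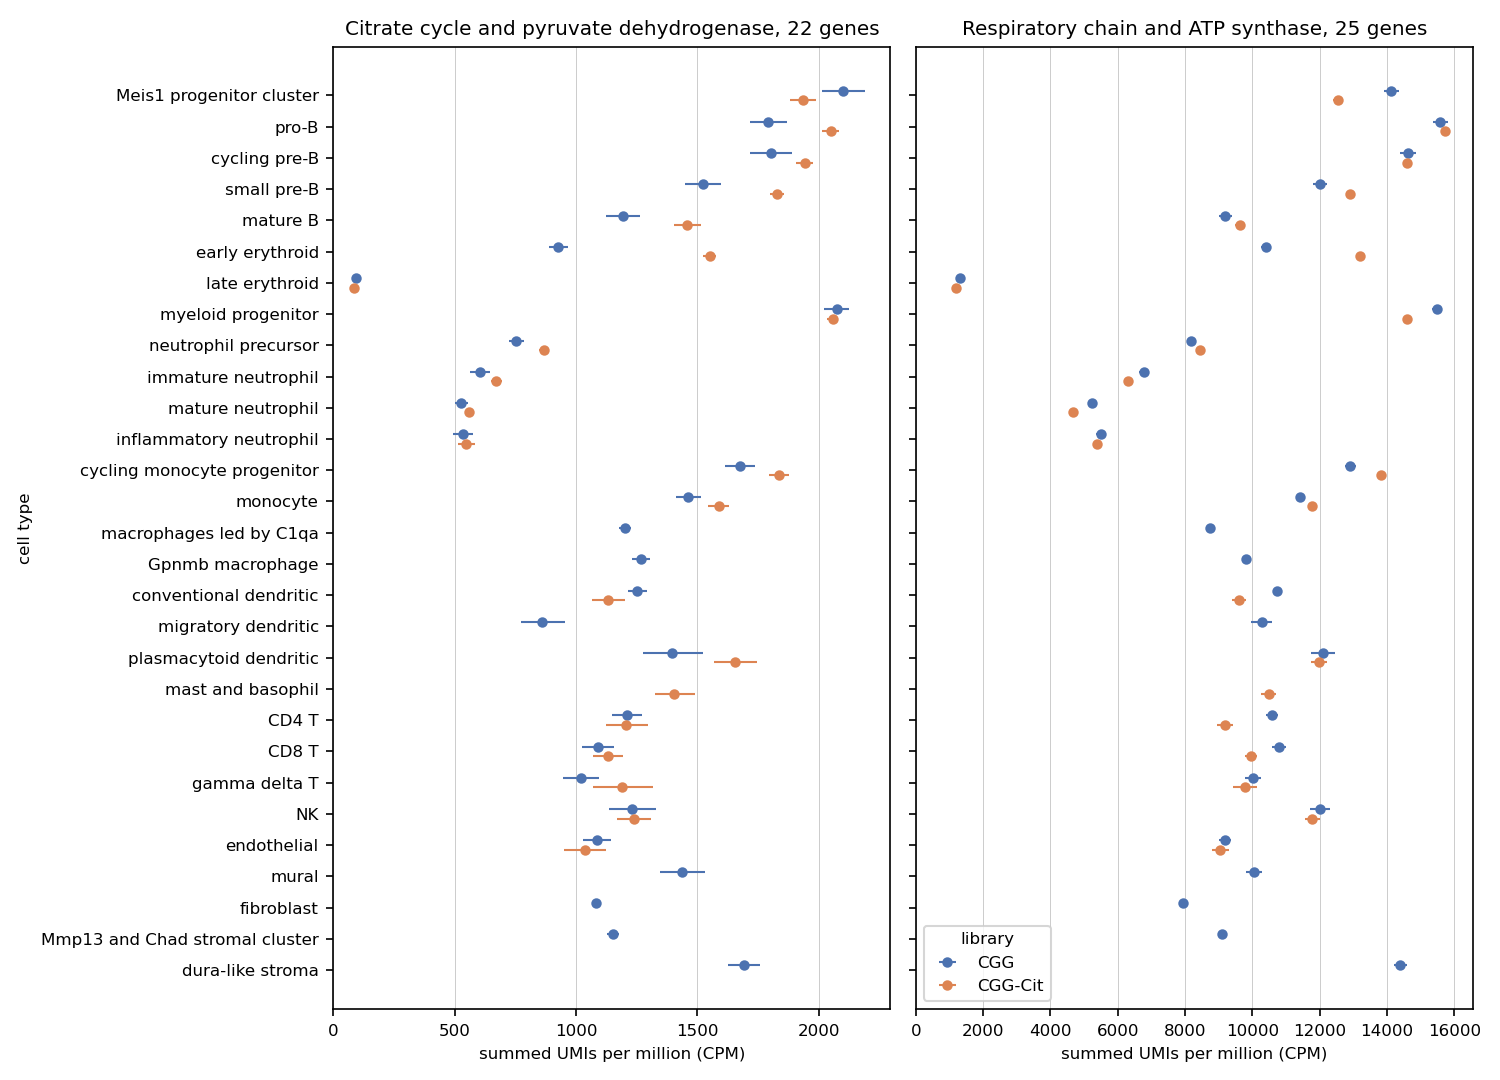
Summed level (CPM, horizontal axis) of the 22 citrate cycle genes (left) and the 25 respiratory chain genes (right) in each cell type (vertical axis), 1 point per library with its 95% counting interval. Myeloid progenitors and B precursors lie to the right in both panels and neutrophils and late erythroid cells to the left, at 528 and 94.8 CPM for the citrate cycle in the CGG library.

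Among the entry enzymes, pyruvate dehydrogenase and citrate synthase (Cs) followed the general order. Pdha1, the alpha subunit of the first pyruvate dehydrogenase enzyme, was highest in small pre-B cells (92.2 and 83.4 CPM) and lowest in inflammatory neutrophils (17.2 and 15.3 CPM). Its partner Pdhb was highest in cycling pre-B cells (85.8 and 88.2 CPM). Cs was highest in cycling pre-B cells with CGG (94.3 CPM) and in cycling monocyte progenitors with CGG-Cit (73.1 CPM), and lowest in neutrophils (15.5 and 20.5 CPM).

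The isocitrate dehydrogenases divided the cell types sharply. Idh1, the cytosolic NADP-linked enzyme, was highest in monocytes (207 and 228 CPM), next in their cycling progenitors (106 and 133 CPM), and had a median over types of 16.8 and 17.5 CPM. T cells and NK cells were near the floor for Idh1, with 1 UMI in all CD8 T cells of the CGG library and 3 UMIs in all NK cells of the CGG-Cit library. Idh2, the mitochondrial NADP-linked enzyme, was highest instead in the Meis1 cluster (187 and 178 CPM) and in myeloid progenitors (147 and 162 CPM). In monocytes Idh2 was at 33.1 and 33.2 CPM, so the 2 NADP-linked genes had their peaks in different cells. Of the NAD-linked enzyme that belongs to the cycle proper, the catalytic subunit gene Idh3a peaked in progenitors (87.3 CPM in the Meis1 cluster, 73.2 CPM in CGG-Cit myeloid progenitors). Mature neutrophils held Idh3a at 1.64 and 1.15 CPM. Idh3b and Idh3g, its regulatory subunits, ranged from 6.54 to 86.8 CPM and from 19.3 to 124 CPM with CGG.

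Among the later steps, fumarase, cytosolic malate dehydrogenase and a succinyl-CoA ligase subunit varied most. Ogdh, Dlst and Dld, the 3 components of 2-oxoglutarate dehydrogenase, spanned 3.15, 2.69 and 3.28-fold over types with CGG-Cit, with the highest level of Ogdh in CGG at 113 CPM (Meis1 cluster) and the lowest at 37.8 CPM (inflammatory neutrophils). Succinyl-CoA ligase pairs a shared alpha subunit, Suclg1, with a beta subunit that takes ADP (Sucla2) or GDP (Suclg2). Suclg2 ran from 92.1 and 62.3 CPM in the Meis1 cluster down to 1.46 CPM in immature neutrophils (CGG) and 0.864 CPM in mature neutrophils (CGG-Cit). Sucla2 spanned 7.74 and 5.30-fold. The 4 subunits of succinate dehydrogenase, the enzyme shared by the cycle and the chain, spanned 6.22 (Sdha), 3.95 (Sdhb), 5.75 (Sdhc) and 3.40-fold (Sdhd) with CGG. Fh1, fumarase, was at 75.9 CPM in CGG myeloid progenitors, 81.3 CPM in CGG-Cit myeloid progenitors, and 1.96 and 2.45 CPM in mature neutrophils. Mdh2, the mitochondrial malate dehydrogenase, was the most even of the cycle genes, from 104 to 248 CPM with CGG and from 101 to 257 CPM with CGG-Cit. Mdh1, the cytosolic form, ranged from 9.45 to 205 CPM and from 10.8 to 256 CPM. Aco1, cytosolic aconitase, was highest in monocytes (19.9 and 15.7 CPM). It reached the minimum level for a comparison between libraries in 5 of 21 types.

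Most respiratory chain genes were even across types. Complex I is represented by Ndufa1, Ndufa2, Ndufb7, Ndufb9, Ndufs5 and Ndufc1, small accessory subunits, whose spans with CGG ran from 2.38-fold (Ndufb9) to 11.1-fold (Ndufc1). Of complex III, Uqcrb, a small matrix-side subunit, spanned 8.44 and 11.6-fold, and Uqcrh, the hinge protein, 3.52 and 4.18-fold. Uqcrq and Uqcr10 spanned 3.36 and 3.10-fold with CGG. Of complex IV, Ndufa4, a subunit first assigned to complex I, stood out with 1219 CPM in the Meis1 cluster (CGG) against 77.3 CPM in inflammatory neutrophils, a 15.8-fold span. The other members, Cox4i1, Cox5a, Cox5b, Cox6a1, Cox6c, Cox7a2, Cox7c and Cox8a, spanned 2.66-fold (Cox4i1) to 4.77-fold (Cox5a). Of ATP synthase, Atp5g1, a gene for the membrane ring subunit c, ran from 727 and 684 CPM in myeloid progenitors to 30.9 CPM in inflammatory neutrophils (CGG) and 25.3 CPM in mature neutrophils (CGG-Cit). Atp5b, the catalytic beta subunit, spanned 7.24 and 7.37-fold, while Atp5l, subunit g, was the most even of all members at 2.19 and 2.21-fold. Atp5e, Atp5h and Atp5j, further small subunits, spanned 2.40, 3.92 and 3.50-fold with CGG. Spans and medians of single genes are over the 19 types that passed 50 cells in both libraries outside the erythroid series.

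Along granulocyte maturation both lists were lower at each step from the progenitor to the mature cell. Myeloid progenitors, marked by Mpo, Elane and Prtn3, were compared with neutrophil precursors (Fcnb, Camp), which still divide, and with immature, mature and inflammatory neutrophils. The citrate cycle sum was 2.75-fold lower in precursors than in myeloid progenitors with CGG (interval 2.62 to 2.89) and 2.37-fold lower with CGG-Cit (2.31 to 2.43). For the respiratory chain the same step was 1.89 and 1.73-fold. A gene was counted as measured where the compared cells held a mean of at least 10 CPM and 20 UMIs together. Of 21 measured cycle genes 20 were at least 1.5-fold lower in both libraries, Dlst being the exception, and of 25 respiratory chain genes 20 and 19 were. Over all genes measured, 50.7% (CGG) and 48.7% (CGG-Cit) were at least 1.5-fold lower in this step. The median log2 ratio over the cycle genes was -1.49 and -1.29, beside -0.60 and -0.55 over all genes.

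By the mature stage the sums were lower again. From myeloid progenitors to mature neutrophils the citrate cycle sum was 3.93-fold lower with CGG (3.72 to 4.16) and 3.69-fold lower with CGG-Cit (3.57 to 3.81), and the respiratory chain sum 2.96 and 3.12-fold. Here 20 of 21 cycle genes and 25 of 25 respiratory chain genes were at least 1.5-fold lower in each library, beside 61.4% (CGG) and 60.4% (CGG-Cit) of all genes. The median log2 ratio was -2.15 and -2.18 over the cycle genes, -1.49 and -1.59 over the respiratory chain genes, and -1.23 and -1.22 over all genes. The cells of these types also differed in how many UMIs they held, with medians of 28997 and 33382 per myeloid progenitor against 5643 and 5526 per mature neutrophil.

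The steps of the cycle differed in how far they were reduced in neutrophils, the isocitrate and fumarate steps being the lowest against myeloid progenitors. Idh2 went from 147 to 2.29 CPM with CGG and from 162 to 3.46 CPM with CGG-Cit. Idh3a went from 65.6 to 1.64 CPM and from 73.2 to 1.15 CPM. Fh1 was 38.7-fold lower with CGG (17.5 to 107) and 33.2-fold lower with CGG-Cit (20.7 to 57.2). The 3 NAD-linked isocitrate dehydrogenase genes together were 9.34 and 9.64-fold lower, beside 3.68 and 3.27-fold for the 4 succinate dehydrogenase genes. The malate step kept more of its level, since Mdh2 went from 248 to 137 CPM and from 257 to 169 CPM. Dlst, the succinyl-transferring component of 2-oxoglutarate dehydrogenase, was not lower, at 33.1 CPM in myeloid progenitors and 42.8 CPM in mature neutrophils with CGG, and 29.4 and 32.0 CPM with CGG-Cit. The interval of its ratio included 1 in both libraries.

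Within the chain, Atp5g1 was reduced most and Ndufa1 and Ndufb7 with CGG least. Atp5g1 went from 727 to 34.7 CPM with CGG, with an interval of the fold of 17.2 to 25.7, and from 684 to 25.3 CPM with CGG-Cit (23.2 to 31.5). Ndufa4 went from 884 to 107 CPM and from 854 to 90.9 CPM. Ndufa1 and Ndufb7 of complex I were at 173 and 250 CPM in CGG mature neutrophils and at 260 and 379 CPM in CGG myeloid progenitors. Other genes of the same complexes, listed by name, were counted in the same way. At least 1.5-fold lower were 30 and 28 of 30 measured further complex I genes and 6 of 6 complex III genes and cytochrome c. So were 4 of 4 complex IV genes and 11 of 11 ATP synthase genes. Of further citrate cycle and pyruvate genes only 8 of 12 (CGG) and 8 of 11 (CGG-Cit) were, near the share of all genes. That share was 61.4% with CGG and 60.4% with CGG-Cit. The 13 mitochondrially encoded subunits summed to 21597 and 19696 CPM in myeloid progenitors and to 5904 and 3080 CPM in mature neutrophils, 3.66 and 6.40-fold lower. Nuclear and mitochondrial genes of the chain were thus both lower.

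Between mature and inflammatory neutrophils, which carry Il1b, the citrate cycle sums were close. The citrate cycle sum was 528 against 532 CPM with CGG and 558 against 547 CPM with CGG-Cit, with intervals of the ratio that included 1 in both libraries. The respiratory chain sum was higher in inflammatory neutrophils, at 5233 against 5494 CPM with CGG and 4678 against 5373 CPM with CGG-Cit. The mitochondrially encoded sum was higher in them with CGG (5904 against 6333 CPM) and lower with CGG-Cit (3080 against 2420 CPM).

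**Figure D2:**
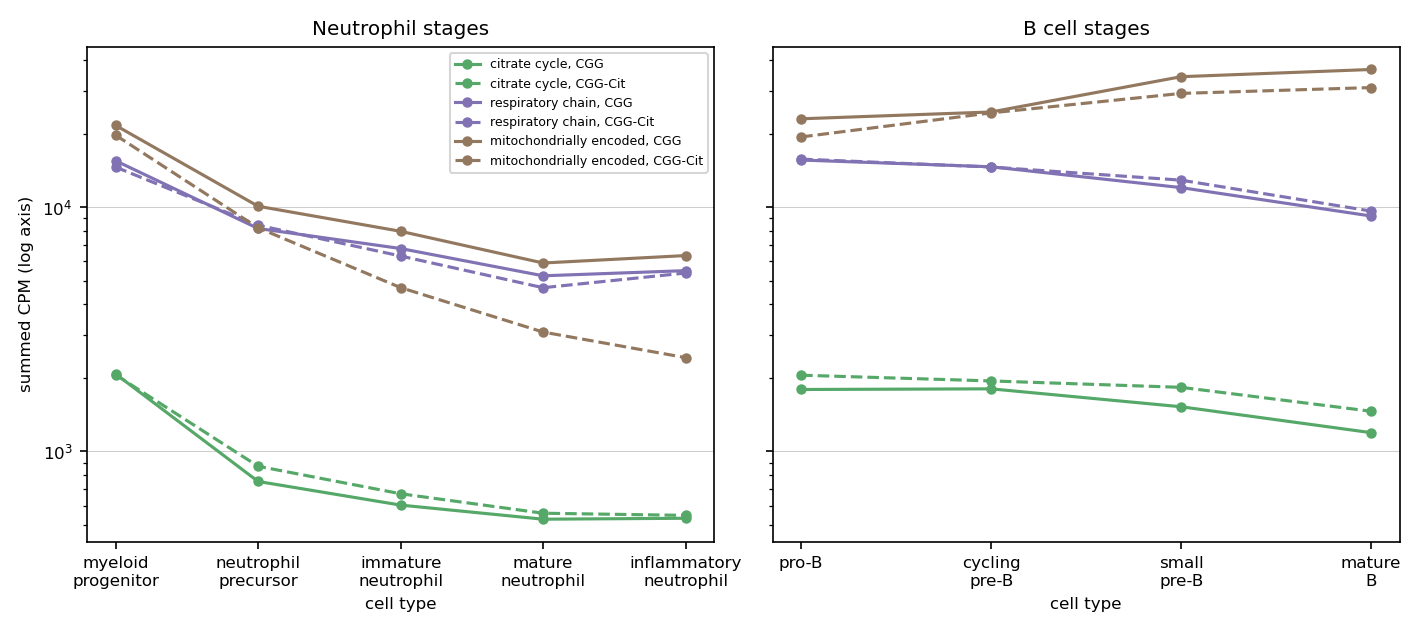
Summed levels (CPM, log axis) of the citrate cycle, respiratory chain and mitochondrially encoded genes along the neutrophil stages (left) and the B cell stages (right), with 1 line per list and library (solid CGG, dashed CGG-Cit). Points are sums over all cells of a type. The nuclear lists go from 2075 and 15478 CPM in CGG myeloid progenitors to 528 and 5233 CPM in mature neutrophils, and in B cells the mitochondrially encoded genes lie higher in mature cells while the nuclear lists lie lower.

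Along B cell development both sums were lower in mature cells than in their cycling precursors, by smaller folds. Citrate cycle sums were 1792 and 2051 CPM in pro-B cells (Dntt, Vpreb1) and 1803 and 1943 CPM in cycling pre-B cells. They were 1523 and 1829 CPM in small pre-B cells (Rag1) and 1193 and 1460 CPM in mature B cells (Ms4a1). Small pre-B cells included a dividing cluster of 34 CGG and 348 CGG-Cit cells, with Mki67 and Top2a together at 1389 and 1902 CPM. The respiratory chain sum of that cluster was 15748 and 14873 CPM. The respiratory chain followed the same order from the cycling stage on, from 14621 and 14590 CPM to 9193 and 9631 CPM. From cycling pre-B to mature B cells the citrate cycle was 1.51-fold lower with CGG (1.40 to 1.63) and 1.33-fold lower with CGG-Cit (1.28 to 1.39), and the respiratory chain 1.59 and 1.52-fold. At least 1.5-fold lower were 12 and 8 of 20 measured cycle genes and 16 and 17 of 25 respiratory chain genes. Over all genes 27.4% (CGG) and 24.8% (CGG-Cit) were, with a median log2 ratio of 0.01 and 0.00. Idh2 was 2.36 and 3.19-fold lower and Cox8a, which went from 1454 to 675 CPM and from 1363 to 700 CPM, 2.15 and 1.95-fold lower. Suclg1 ran the other way, from 66.5 to 88.9 CPM with CGG (an interval of the ratio that included 1) and from 80.4 to 113 CPM with CGG-Cit. The mitochondrially encoded genes also ran the other way, from 24510 to 36583 CPM and from 24304 to 30850 CPM. Along this lineage the nuclear and mitochondrial subunits of the chain thus went in opposite directions per UMI. Median UMIs per cell also differed, at 8540 and 8150.5 in cycling pre-B and 2645 and 2852 in mature B cells. Among small pre-B cells with CGG-Cit, the dividing cluster (median 6512.5 UMIs) held 24288 CPM of mitochondrially encoded genes. The largest cluster, with a median of 2730 UMIs, held 32172 CPM. The part of depth or division in this was not tested.

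For the erythroid stages haemoglobin UMIs were taken out of the total, since they made up 38.3% and 24.1% of UMIs in early and 87.5% and 87.6% in late erythroid cells. On that scale the citrate cycle went from 1503 to 758 CPM with CGG, 1.98-fold lower (1.79 to 2.20), and from 2043 to 676 CPM with CGG-Cit, 3.02-fold lower (2.82 to 3.25). The early cells with CGG-Cit included 154 cells of a cluster nearly free of haemoglobin, against 19 with CGG. From the early cells of the other, haemoglobin-rich cluster alone, with 1334 and 1360 CPM, the folds were 1.76 (1.58 to 1.96) and 2.01 (1.86 to 2.18). The respiratory chain was 1.59 and 1.83-fold lower from all early cells and 1.57 and 1.82-fold lower from that cluster. From all early cells, at least 1.5-fold lower were 16 of 21 and 18 of 20 measured cycle genes and 18 and 20 of 25 respiratory chain genes, beside 51.9% (CGG) and 59.5% (CGG-Cit) of all genes. Atp5g1 was again among the most reduced, 5.95 and 17.5-fold, and Idh3a went from 61.3 to 8.76 CPM with CGG. Succinate dehydrogenase genes together were 2.92 and 4.06-fold lower. Atp5l stood against the rest and was higher in late cells, at 733 and 1205 CPM with CGG and 693 and 1037 CPM with CGG-Cit. Uqcrh was at 778 and 935 CPM with CGG and 788 and 826 CPM with CGG-Cit. Uqcrh and Atp5l are also the 2 members after which pseudogenes are named in the reference annotation, so reads of near-identical copies may not be assigned with certainty.

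Both lists were lower in monocytes than in their cycling progenitors, by small folds. The intervals of the levels did not meet for either list in either library. For the citrate cycle with CGG they were 1615 to 1738 CPM in the progenitors and 1413 to 1515 CPM in monocytes. From cycling monocyte progenitors to monocytes the citrate cycle went from 1676 to 1463 CPM with CGG and from 1836 to 1588 CPM with CGG-Cit, and the respiratory chain from 12911 to 11425 CPM and from 13824 to 11783 CPM. At least 1.5-fold lower were 4 and 3 of 22 measured cycle genes and 1 of 25 respiratory chain genes in each library, beside 21.8% (CGG) and 19.1% (CGG-Cit) of all genes. Idh1 was higher in monocytes, as given above, while monocytes held Mdh1 at 74.3 and 97.0 CPM against 124 and 138 CPM in the progenitors. The contrast between monocyte and neutrophil maturation rests on different starting clusters and was not tested.

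Between the hydrogels, citrate cycle sums were higher with CGG-Cit in most types and respiratory chain sums lower in most, by small ratios. The citrate cycle sum was higher with CGG-Cit in 15 of 21 types, with a median log2 ratio of 0.11 and intervals above 1 in 11 types and below 1 in 3. The respiratory chain sum was higher in 7 of 21 types, with a median of -0.03, intervals above 1 in 6 types and below 1 in 8. The contrast between the lists depends on doublet removal, since with predicted doublets kept the citrate cycle was higher in 19 of 20 types and the respiratory chain in 13 of 20, with a median of 0.0083. The 21 types come from the same 2 libraries and are not independent of each other. By enzyme, the 4 succinate dehydrogenase genes together were higher with CGG-Cit in 18 types (median ratio 1.13) and the 3 cytosolic enzymes in 18 (median ratio 1.16). Pyruvate dehydrogenase was higher in 10 types and NAD-linked isocitrate dehydrogenase in 15. By complex, the sums were higher in 10 types for complex I, 7 for complex III, 8 for complex IV and 7 for ATP synthase.

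B cells, plasmacytoid dendritic cells and monocytes were among the types with higher citrate cycle sums with CGG-Cit. Mature B cells had 1193 (CGG) and 1460 CPM (CGG-Cit), a ratio of 1.22 (1.14 to 1.31). Small pre-B cells had a ratio of 1.20 (1.14 to 1.27), pro-B cells 1.14 (1.09 to 1.20) and cycling pre-B cells 1.08 (1.02 to 1.13). Small pre-B cells came 80.1% from a single cluster with CGG and 60.1% from another with CGG-Cit, and with equal weights of clusters their ratio was 1.09. With equal weights mature B cells had 1.15 and pro-B cells 1.08. Plasmacytoid dendritic cells, with 1396 and 1656 CPM, had a ratio of 1.19 (1.07 to 1.32). Mki67 and Top2a together were at 272 (CGG) and 867 CPM (CGG-Cit) in these cells, and the part of division was not tested. Monocytes had 1.09 (1.04 to 1.13), and their cycling progenitors, with 1676 and 1836 CPM, 1.10 (1.05 to 1.14).

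Neutrophil precursors had citrate cycle sums of 753 and 869 CPM, a ratio of 1.15 (1.10 to 1.21), and immature neutrophils 603 and 671 CPM, a ratio of 1.11 (1.03 to 1.20). In mature and inflammatory neutrophils the intervals included 1. Lower with CGG-Cit were conventional dendritic cells, with 1252 and 1133 CPM and a ratio of 0.904 (0.843 to 0.969), and the Meis1 cluster, with a ratio of 0.920 (0.875 to 0.968). In the Meis1 cluster, which held 50 CGG cells, the log2 ratio was 0.08 when predicted doublets were kept, so its direction rests on that filter. Late erythroid cells had a ratio of 0.887 (0.788 to 0.999), with a log2 ratio of 0.69 when predicted doublets were kept and 0.05 with at least 500 genes per cell. T, NK and endothelial cells had intervals that included 1, apart from gamma delta T cells with 1.17 (1.02 to 1.33).

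The respiratory chain was lower with CGG-Cit in CD4 and CD8 T cells, conventional dendritic cells, myeloid progenitors, and immature and mature neutrophils. CD4 T cells had 10591 and 9188 CPM, a ratio of 0.867 (0.841 to 0.895), and CD8 T cells 0.921 (0.897 to 0.946). For CD8 T cells this did not hold without haemoglobin, ribosomal protein and mitochondrially encoded UMIs in the total, where the sums were 16050 and 16079 CPM. Haemoglobin made up 0.290% (CGG) and 3.51% (CGG-Cit) of UMIs in CD4 T cells, whose sums without it were 10622 and 9522 CPM. In conventional dendritic cells its share was 0.210% and 2.63%, and the sums without it were 10741 and 9854 CPM. CD4 T cells also differed in Mki67 and Top2a, together at 305 (CGG) and 132 CPM (CGG-Cit). The part of division was not tested. Gamma delta T cells, NK cells, plasmacytoid dendritic cells and inflammatory neutrophils had intervals that included 1. Conventional dendritic cells had 0.895 (0.874 to 0.917), the Meis1 cluster 0.887 (0.870 to 0.905) and mature neutrophils 0.894 (0.877 to 0.911). Mature neutrophils, however, had a log2 ratio of 0.11 with predicted doublets kept. Myeloid progenitors were lower in every setting they had, with log2 ratios from -0.12 to -0.02. Higher with CGG-Cit were cycling monocyte progenitors at 1.07 (1.05 to 1.09), mature B cells at 1.05 (1.02 to 1.07), and neutrophil precursors and monocytes at 1.03 each. Small pre-B cells were at 1.07 over all cells and at 0.991 with an equal mix of clusters. Not every alternative gave each type a value, and a type had between 9 and 12 of them. Over those it had, the citrate cycle kept its direction in 15 of 21 types, 14 higher and 1 lower, and the respiratory chain in 12 of 21, 5 higher and 7 lower. Dropping the minimum level or the erythroid types left the sums of each remaining type unchanged. Those alternatives could therefore not turn a direction.

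Early erythroid cells had the widest ratio, 1.67 (1.60 to 1.75) for the citrate cycle and 1.27 for the respiratory chain. In them 15 of 20 measured cycle genes were at least 1.5-fold higher with CGG-Cit, beside 33.9% of all genes. The 2 libraries held different stages under this name, since a single haemoglobin-rich cluster made up 171 of the 190 CGG cells and 281 of the 435 CGG-Cit cells. Within that cluster the citrate cycle sums were 754 and 756 CPM and the respiratory chain sums 9416 and 9611 CPM.

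**Figure D3:**
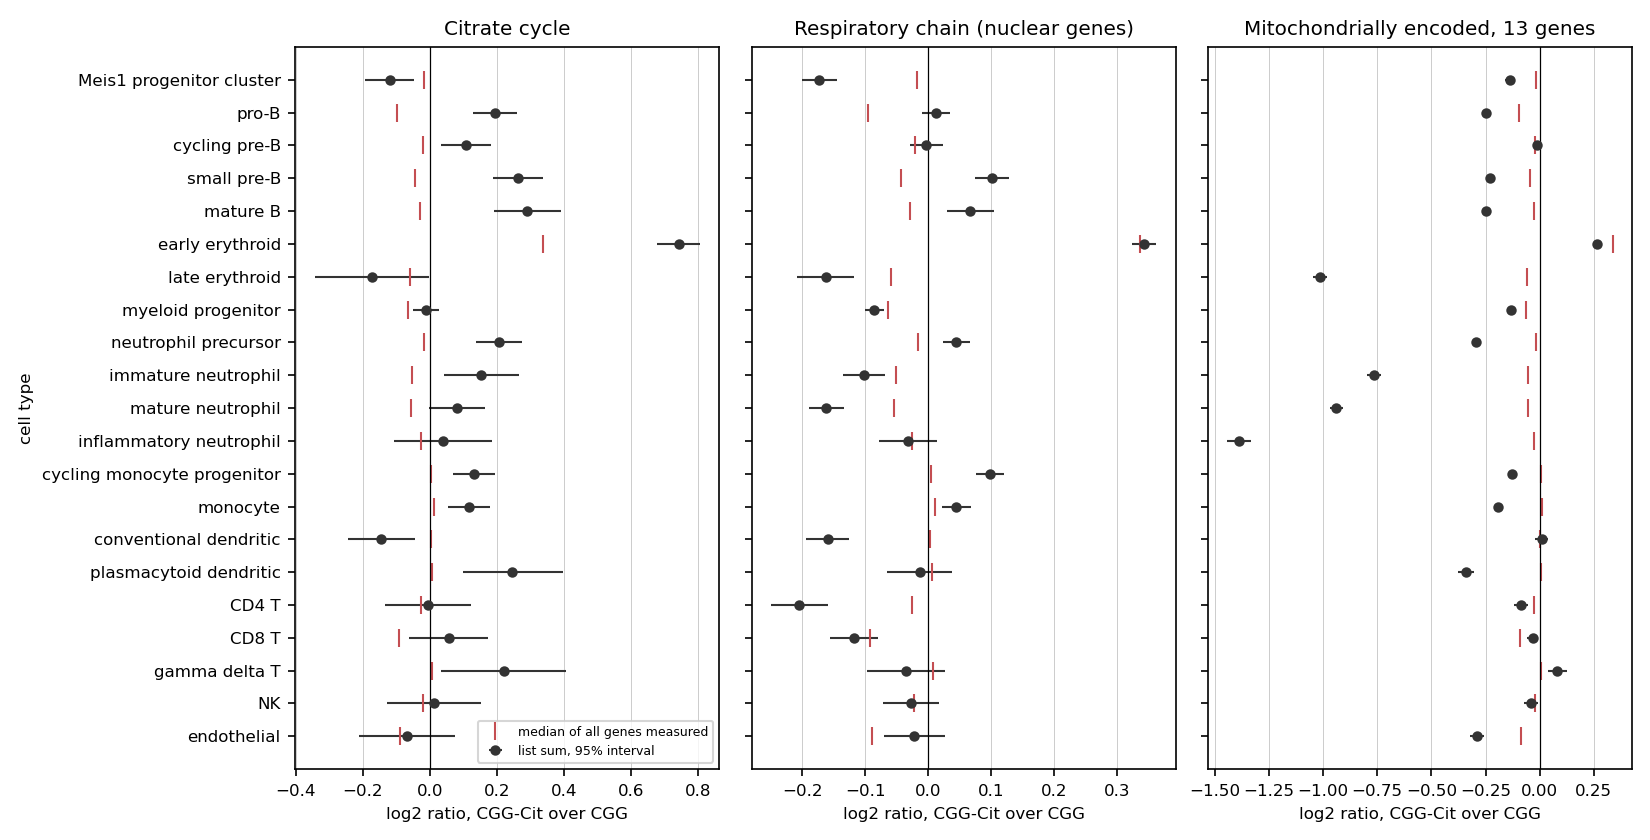
Log2 ratio between the libraries (CGG-Cit over CGG, horizontal axis) of the summed citrate cycle, respiratory chain and mitochondrially encoded genes in each of 21 cell types (vertical axis), as points with 95% counting intervals. Red ticks mark the median over all measured genes of that type, and citrate cycle points lie above 0 in 15 types and respiratory chain points in 7.

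Single members differed between the gels by modest ratios. Over the 19 types outside the erythroid series, 849 pairs of a member and a type were measured. Of these 2.36% were at least 1.5-fold higher with CGG-Cit and 2.83% at least 1.5-fold lower, beside 8.3% and 11.8% of 127105 pairs over all genes. These shares are given without a test.

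Several members nevertheless pointed the same way in most types, and some in nearly all. They were chosen after their values were seen. A share over all genes is given below only for genes measured in all 21 types. Sdhb, the iron-sulphur subunit of succinate dehydrogenase, was higher with CGG-Cit in 20 of 20 types measured, with 11 intervals above 1. Its levels were 135 and 192 CPM in cycling pre-B cells, 109 and 160 CPM in mature B cells, 138 and 205 CPM in cycling monocyte progenitors and 38.9 and 58.9 CPM in mature neutrophils. The smallest ratio of Sdhb was that of inflammatory neutrophils, 1.02 (0.745 to 1.41), at 57.5 and 58.8 CPM. Suclg1 was higher in 18 of 20 types (median log2 ratio 0.35) and Mdh1 in 16 of 20 (0.30). Monocytes held Suclg1 at 48.0 and 72.4 CPM, and pro-B cells held Mdh1 at 197 and 256 CPM. Fh1 was higher in 12 of 16 types (0.31), among them mature B cells with 38.8 and 71.4 CPM, but lower in conventional dendritic cells with 65.1 and 43.1 CPM.

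Other cycle genes were lower with CGG-Cit in most types. Dlst was lower with CGG-Cit in 15 of 20 types (median log2 ratio -0.33) and Ogdh, its partner in the same complex, in 15 of 21 (-0.25). Monocytes held Ogdh at 102 and 68.1 CPM and Dlst at 46.2 and 32.1 CPM. Suclg2, the GDP-linked beta subunit, was lower in 11 of 15 types (-0.42), while its partner Suclg1 was higher in most. In the Meis1 cluster Suclg2 was at 92.1 and 62.3 CPM and in conventional dendritic cells at 16.6 and 4.42 CPM. Pdha1 was lower in 14 of 20 types (-0.14) and Cs in 12 of 20 (-0.07). Idh1, Idh2, Idh3a, Idh3b, Idh3g, Sucla2, Sdhc, Sdhd, Mdh2 and Pdhb had medians from 0.02 to 0.23, and Aco1, Dld and Sdha from -0.19 to -0.04.

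Respiratory chain genes were just as divided, within the same complex. Ndufb9 of complex I and Atp5h, subunit d of ATP synthase, were higher with CGG-Cit in 21 of 21 types, with median log2 ratios of 0.21 and 0.17. Myeloid progenitors held Atp5h at 719 and 791 CPM and cycling pre-B cells at 750 and 912 CPM. Cox7c and Cox6c of complex IV and Atp5e, the epsilon subunit of ATP synthase, were lower in 20 of 21 types each, early erythroid cells being the exception. Cox7c was at 878 and 672 CPM in myeloid progenitors, 662 and 429 CPM in conventional dendritic cells and 732 and 530 CPM in CD4 T cells, and 18 of its intervals lay below 1. Cox4i1, which starts assembly of complex IV, was higher in 19 of 21 types (0.10). Ndufa1 of complex I was lower in 19 of 21 types (-0.26), Ndufa2 in 18 (-0.18) and Uqcr10 of complex III in 18 (-0.24). Of the 26 members measured in all 21 types, 5 (Ndufb9, Atp5h, Cox6c, Cox7c and Atp5e) pointed the same way in at least 20. Over all 953 genes measured in all 21 types, 102 (10.7%) did. Directions shared between types come from the same 2 libraries and are no replication.

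**Figure D4:**
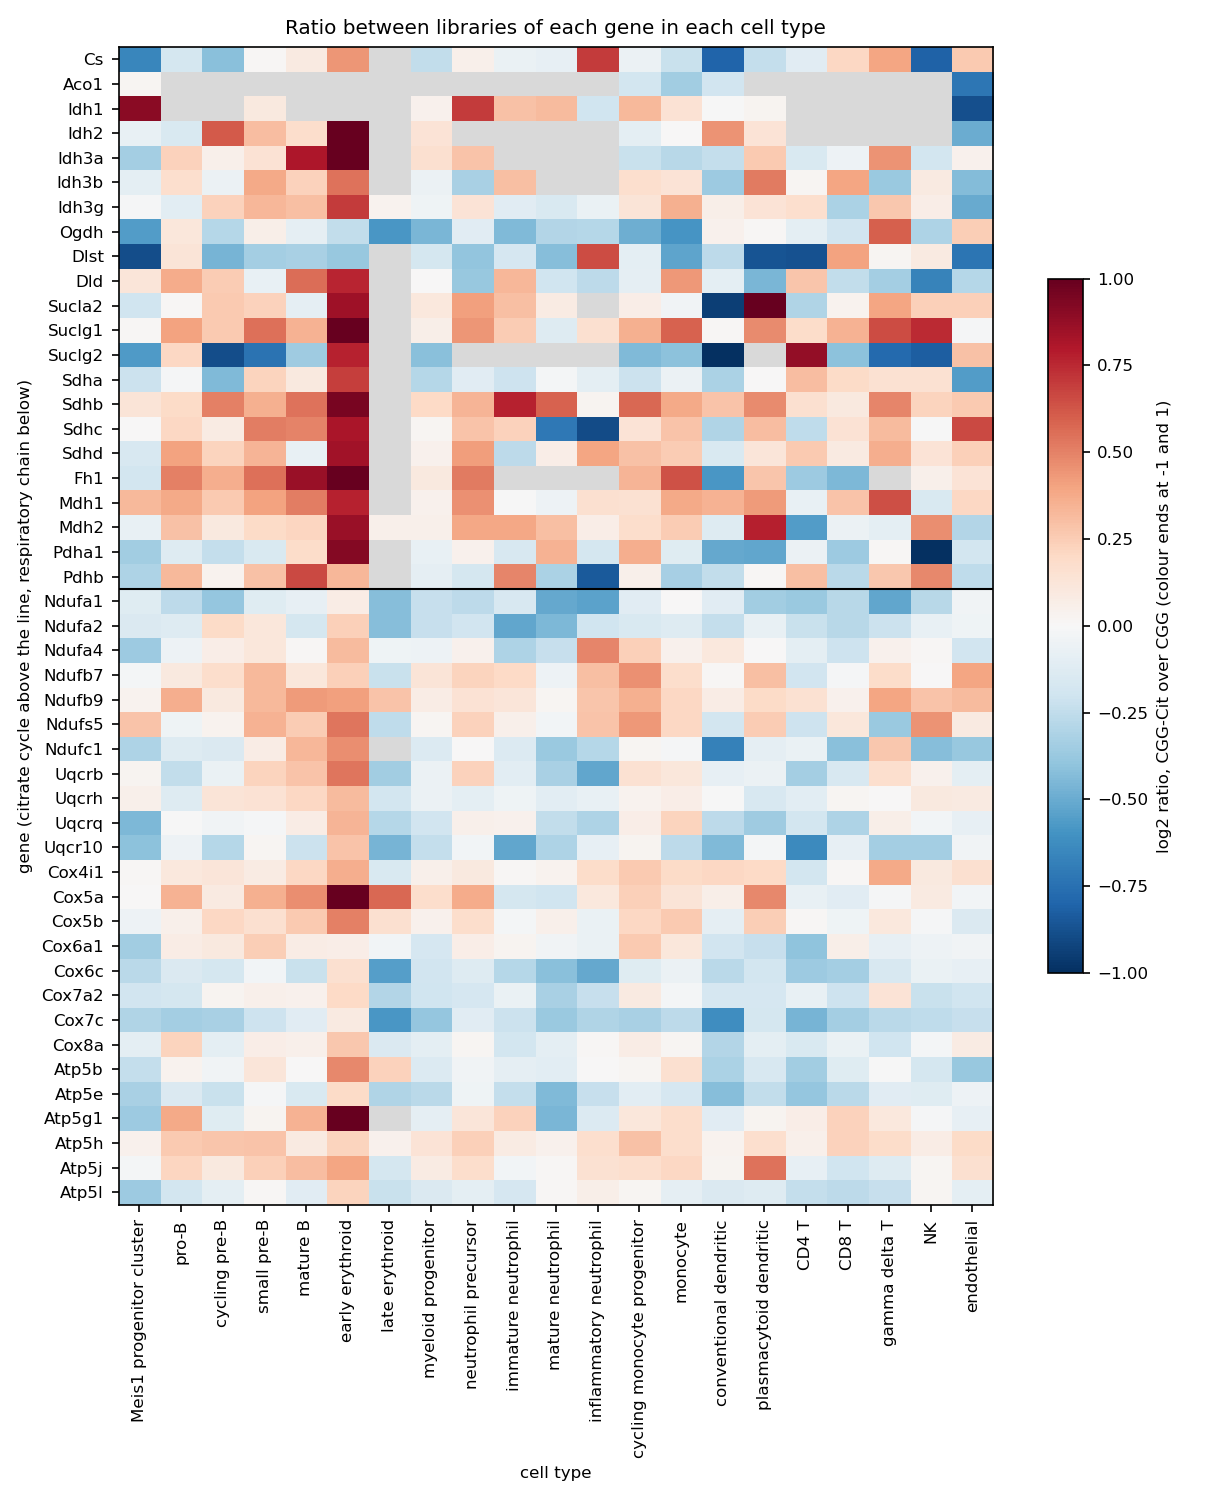
Log2 ratio between the libraries (CGG-Cit over CGG, colour) of each member (rows, citrate cycle above the line and respiratory chain below) in each of 21 cell types (columns). Colour ends at -1 and 1, and grey cells did not reach the minimum level. Sdhb, Ndufb9 and Atp5h were higher in every type measured, Cox7c, Cox6c and Atp5e were lower in every type except early erythroid cells, and the early erythroid column is mostly higher.

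The members of the 2 lists differ in transcript length. The principal annotated transcripts (GENCODE) of the cycle genes had a median length of 2352.5 bases and those of the chain genes 645 bases. Across genes, Spearman's rank correlation between this length and the median log2 ratio was -0.66 over the 22 cycle genes and 0.49 over the 25 chain genes. Over all 6666 genes measured in at least 10 types it was -0.36. Transcripts under 600 bases had median ratios of -0.14 over 10 members (Cox7c, Atp5e, Ndufa1 and Uqcr10 among them) and -0.10 over 107 genes in all. Those of 600 to 1000 bases had 0.10 over 11 members and 0.13 over 421 genes, and those of 2000 to 4000 bases 0.00 over 12 members and -0.04 over 2516 genes. In these bins the members' medians thus lay near those of all genes. Genes are not independent replicates, and the part of length in the ratios was not tested.

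The wider pathway gave a mixed picture between the gels over the 19 types outside the erythroid series. Further complex I genes were above 1 in 376 of 563 gene and type pairs and further complex IV genes in 48 of 71. Further citrate cycle and pyruvate genes were in 117 of 214 and further ATP synthase genes in 101 of 209. Complex III genes with cytochrome c were in 56 of 114, and regulators of mitochondrial biogenesis and coupling in 53 of 113. The share of all genes above 1 was taken within each type but not over these pairs, so these counts are a description. The mitochondrially encoded genes differed, with 35 of 239 pairs above 1 and 53 (22.2%) at least 1.5-fold lower, beside 11.8% over all genes. The mitochondrially encoded sum was much lower with CGG-Cit in neutrophils. It was 7960 and 4681 CPM in immature, 5904 and 3080 CPM in mature and 6333 and 2420 CPM in inflammatory neutrophils. Among the erythroid types, late erythroid cells were also lower, at 2973 and 1472 CPM. The respiratory chain sum of nuclear genes in the 3 neutrophil types had ratios of 0.932, 0.894 and 0.978. Gm26870, which leads 2 of the 9 clusters set aside, moved with the library in these cells. It was at 308, 167 and 490 CPM with CGG and 3.36, 10.9 and 36.2 CPM with CGG-Cit. This was not particular to neutrophils, since Gm26870 was lower with CGG-Cit in every type compared. Monocytes held it at 160 and 1.14 CPM and mature B cells at 307 and 2.77 CPM. Its part in these differences was not tested, and with 1 library per gel the gel and the library cannot be told apart.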

How the data were processed

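Single-cell 3' RNA libraries of 2 hydrogel groups, 1 library each, were used. The authors deposited counts, as UMIs per gene and barcode. Cell Ranger 3.0 and build mm10 are named per the submitters' processing notes, whereas version 4.0.0 stands per the file headers. Cells with at least 200 genes and at most 20% mitochondrial UMIs were kept. Doublets were called with Scrublet in scanpy 1.11.5; its threshold marked 1 CGG cell, so 0.8% per 1000 barcodes was used there, which removed 10.0% of CGG cells and 5.10% of CGG-Cit cells. Cells were clustered on 2000 variable genes and 30 components (15 neighbours, Leiden resolution 2, leidenalg 0.10.2) into 52 clusters, which were named by marker lists with a score of at least 1.25. The names are rebuilt from markers and not the authors'.

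UMIs were summed per type and library and divided by the type's total. Intervals are exact Poisson (levels) or conditional binomial (ratios) at 95%. No test was run, since a group holds 1 library. All 47 members are accounted for. By rule, a member is named with its highest and lowest type, and per type the 3 with the highest and the 3 with the lowest ratios may be named; members named for pointing the same way in most types, or as examples of a stage, were chosen after their values were seen. The members and lists were chosen with earlier results of these data known. The comparison was checked on simulated counts with planted folds and counting error only, which cannot show how far libraries differ for other reasons. There were 13 alternatives, 8 planned and 5 added after seeing the data.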

Additional observations from a re-analysis of the deposited data

Results flagged for a closer look

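Cell types differed in direction between the gels. The citrate cycle sum was higher with CGG-Cit in mature B cells (ratio 1.22) and lower in the Meis1 cluster (ratio 0.920). The respiratory chain sum was higher with CGG-Cit in cycling monocyte progenitors (ratio 1.07) and lower in CD4 T cells (ratio 0.867). These differences between types were not tested, since each rests on the same 2 libraries. The 9 clusters with raised haemoglobin, which entered no comparison, also held signal of both lists in the CGG library. There the citrate cycle genes summed to 1188 CPM and the respiratory chain genes to 9252 CPM, in cells with a median of 1819 UMIs.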

How the results depend on the processing

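The fold between the highest and lowest type for the citrate cycle, 22.2 with CGG and 24.5 with CGG-Cit, was 17.0 and 10.9 with predicted doublets kept, 5.22 and 6.05 with at least 500 genes per cell, and 26.3 and 31.6 at a Leiden resolution of 1. It was 5.84 and 5.32 without haemoglobin, ribosomal and mitochondrial UMIs in the total, 18.3 and 19.6 as a mean over cells, 10.9 and 12.2 with per-cell gates, 48.5 and 53.6 over members past the minimum only, and 3.98 and 3.76 without erythroid types. For the respiratory chain, 11.8 and 13.3, the same settings gave 9.96 and 7.94 (doublets kept), 3.01 and 3.65 (500 genes), 15.1 and 16.2 (clustering), 4.2 and 5.17 (total), 10.2 and 11.4 (mean over cells), 5.75 and 6.79 (gates), and 2.98 and 3.36 (no erythroid types). With doublets kept, 13 of 20 types had a higher respiratory chain sum with CGG-Cit (7 of 21 in the main analysis) and the median log2 ratio was 0.0083 against -0.03, so the majority and the sign both turned. With gates that median was -0.073. The last 2 settings of the citrate cycle, the return of the 9 clusters, equal cluster weights and the single early erythroid cluster were chosen after seeing the data. The cause of each shift was not tested, except that settings without late erythroid cells remove the lowest type. No paired analysis was possible because each group has 1 library. Depth limits single genes in small types: 50 CGG cells stand behind the Meis1 cluster and plasmacytoid dendritic cells.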

Other observations

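Isoforms and regulators outside the 47 members also marked single cell types, in both libraries. Cox6a2, an isoform of a complex IV subunit known from heart and skeletal muscle, was at 1297 CPM (CGG) and 1230 CPM (CGG-Cit) in plasmacytoid dendritic cells, with medians over types of 0.83 and 2.2 CPM. Ucp2, an uncoupling protein family member of the inner mitochondrial membrane, was highest in cycling pre-B cells, at 1702 and 1836 CPM, and lowest in endothelial cells, at 43.9 and 67.1 CPM. Mpc2, a subunit of the mitochondrial pyruvate carrier, ran against the citrate cycle list and was highest in immature neutrophils, at 360 and 401 CPM. Its partner Mpc1 was highest in inflammatory neutrophils, at 279 and 269 CPM. These genes were picked after their values were seen.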
